A study of Mus musculus with 9 samples.

Results

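Liver RNA of 3 groups of mice was examined for 6 genes that report on how hepatocytes handle glucose: Txnip, its opposite-strand neighbour Gm15441, its relative Arrdc4, and the enzyme genes Pck1, G6pc and Pklr. They are 6 of the 24419 gene symbols counted, and all were found by symbol. They were chosen with the counts of these same libraries known, from the contrasts of each model with CTRL and from their place in glucose metabolism. Their differences between groups are therefore given as a description, with a standard error. Where calls of the members by adjusted p are given, they are no support, because the same contrasts chose the genes.

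Each group held 3 libraries, 1 per mouse, from liver of male FVB mice on a normal diet. The CTRL livers came from mice aged 13, 13 and 17 weeks. MODEL1 mice, all 18 weeks old, had received plasmids for NFE2L2 G31A (NFE2L2 is the transcription factor NRF2, master regulator of the antioxidant response) and for CTNNB1 T41A (beta-catenin, the effector of Wnt signalling). MODEL2 mice, aged 19, 20 and 22 weeks, carried NFE2L2 T80K plasmid beside the same CTNNB1 T41A. In both models 20 µg of each plasmid in 2 ml of saline went into the tail vein under pressure, together with a Sleeping Beauty transposase. This delivery reaches a share of the hepatocytes, so a liver still holds cells without the plasmids. The promoter that drove the plasmid genes, whether tumour or surrounding liver was sampled, the hour of collection and any fasting are not given in the sources used here. The labels do not say whether CTRL mice were injected, while the series' description mentions a control with unmutated NFE2L2 beside the T41A beta-catenin.

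Txnip encodes an alpha-arrestin that binds thioredoxin and lowers glucose uptake at the cell surface. In liver its transcription follows intracellular glucose: the factors ChREBP and MondoA, paired with MLX, bind carbohydrate response elements, which are arrays of E-box-like sites. Gm15441 is a long noncoding RNA transcribed across the Txnip locus from the other strand, known in mouse liver as a target of the fasting factor PPARA. Arrdc4 is an alpha-arrestin that answers the same glucose sensors. Pck1 (phosphoenolpyruvate carboxykinase) and G6pc (glucose-6-phosphatase) carry out the early committed and the last step of gluconeogenesis and rise in fasting through cAMP signalling and FOXO1. Pklr, the liver pyruvate kinase, closes glycolysis and is the classic ChREBP target.

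The place of Txnip and Gm15441 in the genome bears on what their counts can mean. In the GENCODE M21 models on GRCm38 (mm10), Txnip lies at chr3:96557957-96561883 on the plus strand, with 3123 exon bases in 6 blocks. Gm15441 lies around it at chr3:96555765-96566801 on the minus strand, with 1676 exon bases in 4 blocks. Exons of the genes share 606 bases, which are 19.4% of the exon bases of Txnip and 36.2% of those of Gm15441. The first shared stretch, chr3:96557957-96558397, is 441 bases long and holds the start of Txnip with 162 of its coding bases. The second, chr3:96559678-96559842, is a stretch of 165 bases that codes for Txnip throughout and lies in the fifth of its blocks and makes up the whole second block of Gm15441, counted along the strand of each. It is shown because a read from it can come from either RNA, and the table does not state how strands were treated:
Txnip exon shared with Gm15441: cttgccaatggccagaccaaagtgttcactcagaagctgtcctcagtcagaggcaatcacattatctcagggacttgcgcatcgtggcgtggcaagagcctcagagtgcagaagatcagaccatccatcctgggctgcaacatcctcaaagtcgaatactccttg
The letters are the Txnip strand from the GENCODE M21 transcripts, all in lower case since no part is singled out. Reads from these 606 bases cannot be told apart between the genes unless the counting used strand.

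**Figure D1:**
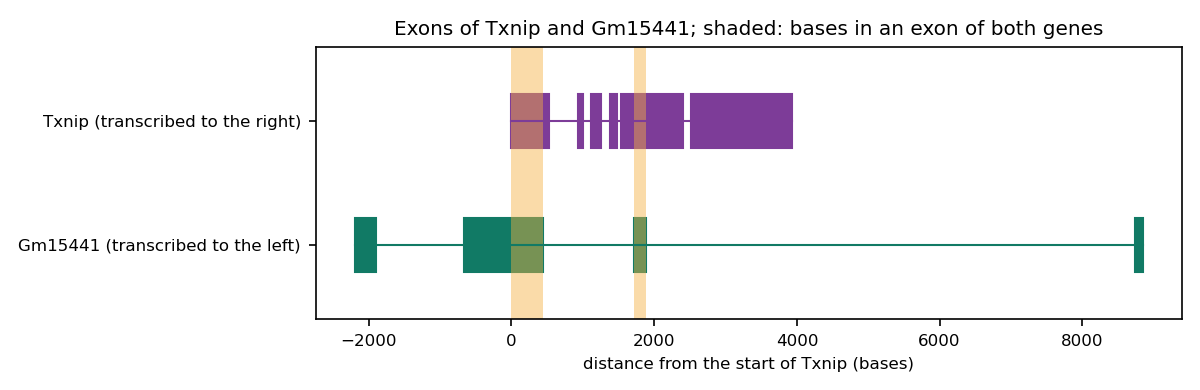
Exon blocks of Txnip (upper row) and Gm15441 (lower row) by distance in bases from the start of Txnip, with introns as thin lines. The 2 shaded stretches, 441 and 165 bases long, lie in exons of both genes, and the longest block of Gm15441 runs across the start of Txnip.

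RefSeq promoter windows on GRCm38.p6, 300 bases around a transcription start, were matched for 5 of the 6 members: Txnip, Arrdc4, Pck1, G6pc and Pklr, the last with a pair of starts. Parts of 4 windows are shown because they hold motifs of the kinds linked to control by glucose or cAMP. Each part is trimmed to bases outside the exons of its own gene. Whether the marked letters act in these genes was not tested. The Txnip stretch lies wholly inside an exon of Gm15441, and the Pklr stretch belongs to the second start. Capitals mark the E-box-like site CACGNG on either strand in Txnip, the E-box CACGTG in Arrdc4, the full carbohydrate response element in Pklr and the cAMP response element TTACGTCA in Pck1:
Txnip promoter, chr3:96557817-96557956, plus strand: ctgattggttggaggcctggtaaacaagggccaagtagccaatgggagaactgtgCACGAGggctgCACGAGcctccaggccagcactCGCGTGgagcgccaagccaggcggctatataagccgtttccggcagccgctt
Arrdc4 promoter, chr7:68749249-68749468, minus strand: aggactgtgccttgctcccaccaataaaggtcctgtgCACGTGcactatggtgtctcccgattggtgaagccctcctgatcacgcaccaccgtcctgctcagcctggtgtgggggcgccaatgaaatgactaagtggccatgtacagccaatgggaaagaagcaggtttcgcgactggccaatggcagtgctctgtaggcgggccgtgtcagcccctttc
Pklr promoter, chr3:89136423-89136571, plus strand: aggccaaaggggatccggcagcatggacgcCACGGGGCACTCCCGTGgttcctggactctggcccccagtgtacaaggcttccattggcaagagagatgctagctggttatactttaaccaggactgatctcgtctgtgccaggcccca
Pck1 promoter, chr2:173152933-173153047, plus strand: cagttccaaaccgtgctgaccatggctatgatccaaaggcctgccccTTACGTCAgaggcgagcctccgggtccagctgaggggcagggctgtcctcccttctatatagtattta
The whole Txnip window held 4 matches to the E-box-like site, 3 on the plus strand at positions -160, -85 and -74 from the start and 1 on the minus strand at -52; the printed stretch holds all but the one at -160. Those at -85 and -74 form a direct repeat with a short spacer, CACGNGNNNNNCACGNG, a pattern searched for after the sequence had been read and found in 0.0487% of the 32851 promoters searched. The E-box-like site, which overlaps the E-box by its letters, occurred in 27.5% of those promoters and the E-box in 7.15%. The carbohydrate response element, a palindromic pair of such sites, occurred in 0.119%, among them the second Pklr start at positions -170 to -154. The cAMP response element, also chosen after the sequence had been read, occurred in 0.499%. Both strands were searched for each motif. The Txnip window held neither the full element nor the E-box, the first Pklr window held none of these motifs, and G6pc held 1 E-box-like site, 38 to 43 bases after its start. A match or its absence describes these letters only.

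Library totals were small, 219504 to 325177 counts, so a library without any count of a gene still allows about 3, or 9.43 to 14.6 CPM (library-scaled counts, here with the trimmed mean of M values). These limits and all Poisson intervals cover counting error only and take no account of PCR copies. The 6 hepatocyte markers listed were Alb, Apoa1, Ttr, Serpina1c, Tf and Hnf4a. Of these, 5 were in the table analysed, none of them at 0 in all libraries. Their summed level was 1983 to 2528 CPM in CTRL, 744 to 1262 in MODEL1 and 1002 to 1296 in MODEL2, so it was lower in every model library than in every CTRL library. In bulk tissue, fewer hepatocytes and less RNA per hepatocyte cannot be told apart. Values per hepatocyte marker count, given below, therefore need not be levels per hepatocyte. Of the cholangiocyte markers 3 of 5 were at 0 everywhere and the rest summed to at most 12.6 CPM. The macrophage list, with Adgre1 at 0, summed to 28.3 to 53.4, 56.6 to 97.7 and 30.7 to 47.5 CPM in CTRL, MODEL1 and MODEL2. The endothelial list summed to 355 to 466, 178 to 251 and 199 to 432 CPM, and the 3 neutrophil markers in the table were at 0. The adipocyte list summed to 267 to 319, 53.1 to 153 and 159 to 188 CPM, and 3 of 4 erythroid markers were at 0. Rn45s, the ribosomal RNA precursor, took 2.43% to 10.3% of counts in CTRL, 2.68% to 13.4% in MODEL1 and 2.20% to 4.11% in MODEL2. The part of these differences in the results below was not tested, except where values per hepatocyte marker count or without the 3 libraries with over 8% Rn45s (CTRL replicate 1, MODEL1 replicates 1 and 3; called rich in Rn45s) are given.

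Counts given to Txnip were at most 10 in each liver of both models and higher in all CTRL livers. CTRL replicates 1 to 3 held 63, 525 and 33 counts. MODEL1 livers held 0, 9 and 9, and MODEL2 livers 0, 2 and 10. In scaled units these were 254, 2548 and 138 CPM in CTRL, 0, 38.2 and 28.3 CPM in MODEL1, and 0, 8.64 and 40.7 CPM in MODEL2. No model library reached the lowest CTRL library, while MODEL1 and MODEL2 overlapped. CTRL replicate 2 stood far above the other CTRL livers, and the group mean of 980 ± 1359 CPM (SD, n = 3) rests on it. The model means were 22.2 ± 19.8 and 16.4 ± 21.4 CPM (SD, n = 3). The fitted log2 fold change was -5.43 ± 0.92 (SE) in MODEL1 and -5.86 ± 0.97 in MODEL2 against CTRL, which is 43.2-fold and 58.0-fold lower. With Gm15441 counts summed in, the values were -1.99 ± 0.35 and -2.06 ± 0.35, and the strand setting of the counting is not known. Both comparisons use the same CTRL libraries. Without CTRL replicate 2 the values were -3.15 ± 0.69 and -3.56 ± 0.73. MODEL2 replicate 3 held 10 of the 12 MODEL2 counts, and without it the MODEL2 value was -7.72 ± 1.37, while without MODEL2 replicate 1 it was -5.24 ± 1.03.

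Pooled over a group, the Txnip counts were 621 for CTRL, 18 for MODEL1 and 12 for MODEL2. The ratio of scaled counts to CTRL was 0.0246 (95% interval 0.0145 to 0.0391) in MODEL1 and 0.0181 (0.00931 to 0.0319) in MODEL2, where the intervals cover counting error only. Both lie far below 1, and the spread between CTRL livers was far wider than the counting error. Between the models the log2 difference was -0.42 ± 1.36, too wide an error to tell a fall from a rise. Set against the 5 hepatocyte markers, Txnip was 10.1, 126 and 6.98 counts per 100 marker counts in CTRL replicates 1 to 3. It was 0, 3.03 and 2.69 per 100 in MODEL1 and 0, 0.862 and 3.98 per 100 in MODEL2. Every model library lay below every CTRL library on this scale, which is no support, since these contrasts chose Txnip.

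By counts, Gm15441 ranked high among the symbols in CTRL liver and was lower in both models, though by far less than Txnip. In CTRL it held 2121, 3161 and 1019 counts, which ranked it 9th, 6th and 20th of all symbols in the library. The 5 hepatocyte markers together held 418 to 626 counts there, and whether Gm15441 counts include Txnip reads was not tested. In MODEL1 Gm15441 held 369, 621 and 1189 counts, and in MODEL2 713, 551 and 568, with ranks between 26 and 108 in the model livers. The scaled levels were 8565, 15344 and 4272 CPM in CTRL, 1400, 2638.5 and 3737 in MODEL1, and 2735, 2381 and 2309 in MODEL2. Every model library lay below every CTRL library, the closest being MODEL1 replicate 3 and CTRL replicate 3. The group means were 9393 ± 5582, 2592 ± 1169 and 2475 ± 228 CPM (SD, n = 3), so the MODEL2 livers were much alike and the CTRL livers were not. The fitted log2 fold change was -1.86 ± 0.34 (SE) in MODEL1 and -1.92 ± 0.34 in MODEL2, which is 3.62-fold and 3.79-fold lower than CTRL. The models differed by -0.07 ± 0.33 on the log2 scale, with overlapping libraries.

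The lower hepatocyte marker level in the models touches this result. Per 100 hepatocyte marker counts, Gm15441 was 339, 756 and 215 in CTRL, 188, 209 and 355 in MODEL1, and 211, 237.5 and 226 in MODEL2. On that scale MODEL1 replicate 3 lay above CTRL replicates 1 and 3, and 2 of the MODEL2 livers lay above CTRL replicate 3. The separation of Gm15441 from CTRL therefore held in CPM and not per hepatocyte marker count, a scale that need not give levels per hepatocyte.

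The counts of the pair were also compared within each library, where depth and scaling cancel. Txnip amounted to 2.97, 16.6 and 3.24 counts per 100 Gm15441 counts in CTRL replicates 1 to 3. The MODEL1 livers had 0, 1.45 and 0.757 and the MODEL2 livers 0, 0.363 and 1.76. The means were 7.61 ± 7.80, 0.735 ± 0.725 and 0.708 ± 0.930 (SD, n = 3), and all model livers lay below all CTRL livers. Within CTRL the livers had the same order for the counts of both symbols, with replicate 2 first and replicate 3 last. If the pair is counted as 1 locus, the log2 fold change was -1.99 ± 0.35 in MODEL1 and -2.06 ± 0.35 in MODEL2, because Gm15441 supplies most of the sum. These counts cannot tell whether reads of one gene were counted to the other. The falls are therefore those of counts given to each symbol and need not be those of each RNA.

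**Figure D2:**
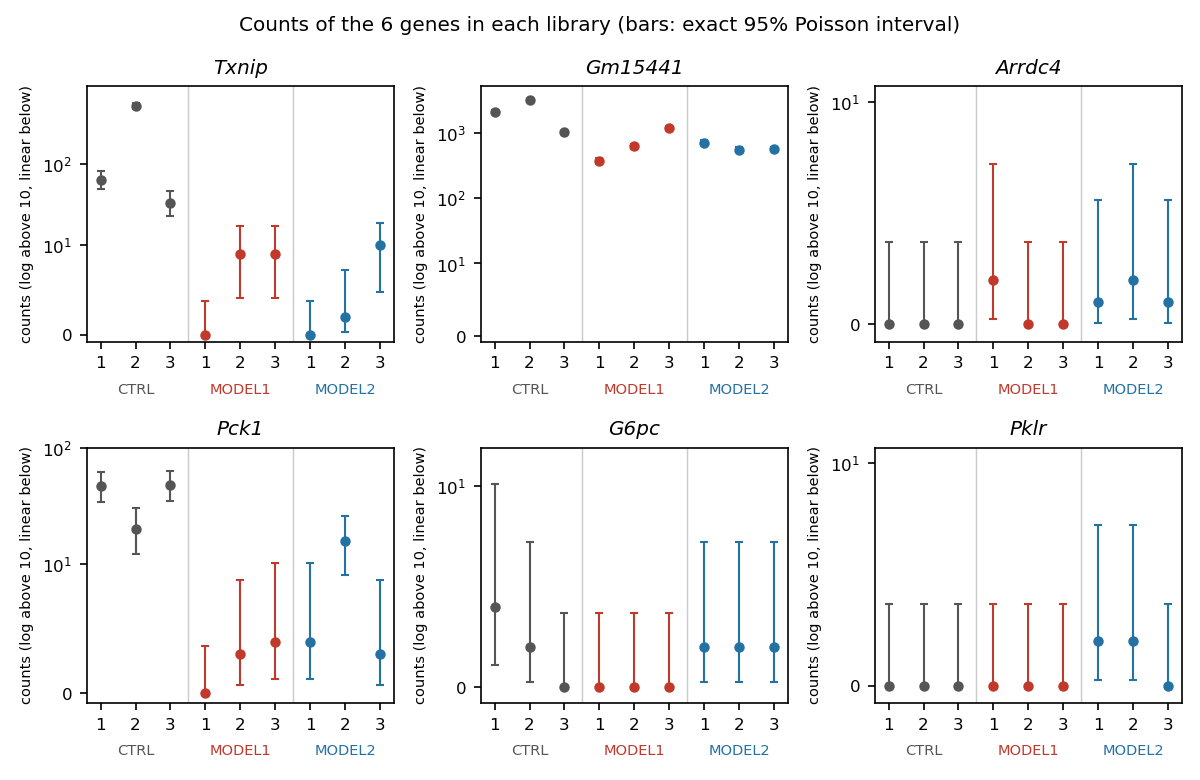
Counts of the 6 genes in the 9 libraries, by group and replicate, on an axis that is linear below 10 and logarithmic above it; bars are exact 95% Poisson intervals. Txnip and Pck1 counts are lower in all 6 model libraries than in any CTRL library, Gm15441 has 1189 counts in MODEL1 replicate 3 against 1019 in CTRL replicate 3, and Arrdc4, G6pc and Pklr hold at most 4 counts in a library.

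Arrdc4, the relative of Txnip at chr7:68736995-68749241 on the minus strand, was at the detection limit. It held 0 counts in all CTRL libraries. The MODEL1 livers held 2, 0 and 0 counts and the MODEL2 livers 1, 2 and 1. The group sums of 0, 2 and 4 have 95% Poisson intervals of 0 to 3.69, 0.242 to 7.22 and 1.09 to 10.2 counts, which overlap. A difference was not detectable at this depth, where 3 counts over a group stand for 4.33 CPM in CTRL, 3.67 in MODEL1 and 4.06 in MODEL2. With no count in CTRL, a lower level in the models could not have been seen for Arrdc4.

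Pck1, at chr2:173153048-173159273 on the plus strand and with no exon of another gene on the other strand, was lower in both models. CTRL livers held 47, 20 and 48 counts, MODEL1 livers 0, 3 and 4, and MODEL2 livers 4, 16 and 3. The levels were 190, 97.1 and 201 CPM in CTRL, 0, 12.7 and 12.6 in MODEL1, and 15.3, 69.1 and 12.2 in MODEL2. No model library reached the lowest CTRL library, and CTRL replicate 2, the highest for Txnip, was the lowest CTRL liver for Pck1. MODEL2 replicate 2 came near that CTRL liver, with the other 5 model libraries far below. The group means were 163 ± 57.1, 8.44 ± 7.31 and 32.2 ± 32.0 CPM (SD, n = 3).

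The fitted log2 fold change of Pck1 against CTRL was -4.18 ± 0.68 (SE) in MODEL1 and -2.35 ± 0.57 in MODEL2, which is 18.2-fold and 5.10-fold lower. Leaving out the 3 libraries rich in Rn45s gave -3.56 ± 1.02 in MODEL1. Leaving out MODEL2 replicate 2 gave -3.53 ± 0.66 in MODEL2, and leaving out MODEL2 replicate 3 gave -1.96 ± 0.62, which no longer passed the threshold. MODEL2 stood 1.83 ± 0.79 above MODEL1 on the log2 scale, with overlapping libraries, and 0.66 ± 0.87 without MODEL2 replicate 2. Per 100 hepatocyte marker counts, Pck1 was 7.51, 4.78 and 10.1 in CTRL, 0, 1.01 and 1.19 in MODEL1, and 1.18, 6.90 and 1.20 in MODEL2. On this scale MODEL1 stayed below CTRL, while MODEL2 replicate 2 lay above CTRL replicate 2.

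G6pc and Pklr were sparse, and both failed the filter on low counts. G6pc, at chr11:101367561-101377903 on the plus strand, held 4, 2 and 0 counts in CTRL, 0 in each MODEL1 library, and 2 in each MODEL2 library. Its ratio of scaled counts in MODEL2 to CTRL was 0.938 (95% counting interval 0.251 to 3.51). With 0 counts in MODEL1, the counting interval of the ratio of MODEL1 to CTRL was 0 to 0.719, which lies below 1, although CTRL replicate 3 also held 0 and the libraries overlapped. The ratio of MODEL2 to MODEL1 had a lower counting bound of 1.30, and their libraries did not overlap. These intervals cover counting error only, on 0 or 6 counts a group, and do not include the spread between livers. Pklr, at chr3:89136142-89146784 on the plus strand, held 0 counts in all CTRL and MODEL1 libraries and 2, 2 and 0 in MODEL2. Of its exon bases 22.0%, none of them coding, lie opposite an exon of Hcn3, a pacemaker channel gene whose own counts ran from 59 to 260 per library. The exon reads of Pklr in that stretch cannot be told from those of Hcn3 unless strand was used.

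Set per kilobase of exon, levels of different genes can be compared, provided that reads were assigned to the right gene. The order in CTRL was Gm15441 at 5605 ± 3331, Txnip at 314 ± 435, Pck1 at 47.4 ± 16.7 and G6pc at 3.57 ± 3.37 CPM per kilobase (SD, n = 3). Neighbours in this order overlapped between libraries only for Txnip and Pck1, where Txnip ran from 44.3 to 816 and Pck1 from 28.3 to 58.7. In MODEL1 the order was Gm15441 at 1546 ± 697, Txnip at 7.10 ± 6.35, Pck1 at 2.46 ± 2.13 and Arrdc4 at 0.626 ± 1.08 CPM per kilobase, and the last 3 overlapped. In MODEL2 Gm15441 led at 1477 ± 136, followed by Pck1 at 9.40 ± 9.33, Txnip at 5.26 ± 6.86, G6pc at 3.38 ± 0.201, Pklr at 1.68 ± 1.46 and Arrdc4 at 1.37 ± 0.671. There the genes below Gm15441 overlapped with their neighbours, except that G6pc lay just above Pklr, both at a few counts. By mean, Txnip stood above Pck1 in CTRL and MODEL1 and below it in MODEL2.

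Of the 6 members, 3 passed the filter on low counts: Txnip, Gm15441 and Pck1. All 3 were called lower by edgeR (adjusted p under 0.05) in MODEL1 against CTRL, where 22.8% of the 2639 genes tested were called, 11.9% higher and 11.0% lower. All 3 were likewise lower in MODEL2 against CTRL, where 13.3% of genes were called, 8.30% higher and 4.96% lower. They were selected on these contrasts and could pass the filter through CTRL alone, so nothing is read from the counts. In MODEL2 against MODEL1 edgeR called 0 of the 3, against 7.28% of all genes (3.87% higher and 3.41% lower), and DESeq2 called 0. At an unadjusted p under 0.05, 1 of the 3, Pck1, passed in edgeR.

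Age could not be told apart from the models, since every CTRL mouse was younger than every model mouse. Within CTRL the oldest mouse, at 17 weeks, had the lowest Txnip and Gm15441 and the highest Pck1. With age as a covariate, Txnip had a log2 fold change of -2.62 ± 1.34 in MODEL1 and -1.59 ± 1.84 in MODEL2, and that of Gm15441 was -0.71 ± 0.43 and -0.11 ± 0.63. Pck1 stayed at -4.39 ± 0.89 and -2.69 ± 1.09. In that fit only Pck1 in MODEL1 passed the threshold among the 3 genes, which were chosen on these contrasts. The fit draws the slope of age from few mice, since MODEL1 mice did not differ in age.

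**Figure D3:**
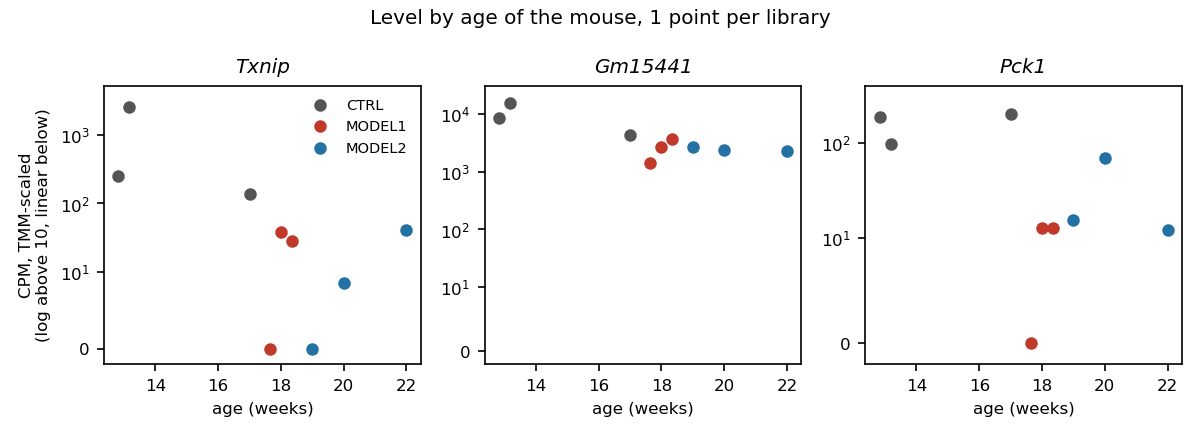
Scaled CPM of Txnip, Gm15441 and Pck1 by age in weeks, 1 point per library, with mice of 1 group and age set slightly apart sideways; the axis is linear below 10 and logarithmic above it. The CTRL points at 13 to 17 weeks do not share an age with the model points at 18 to 22 weeks.

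**Figure D4:**
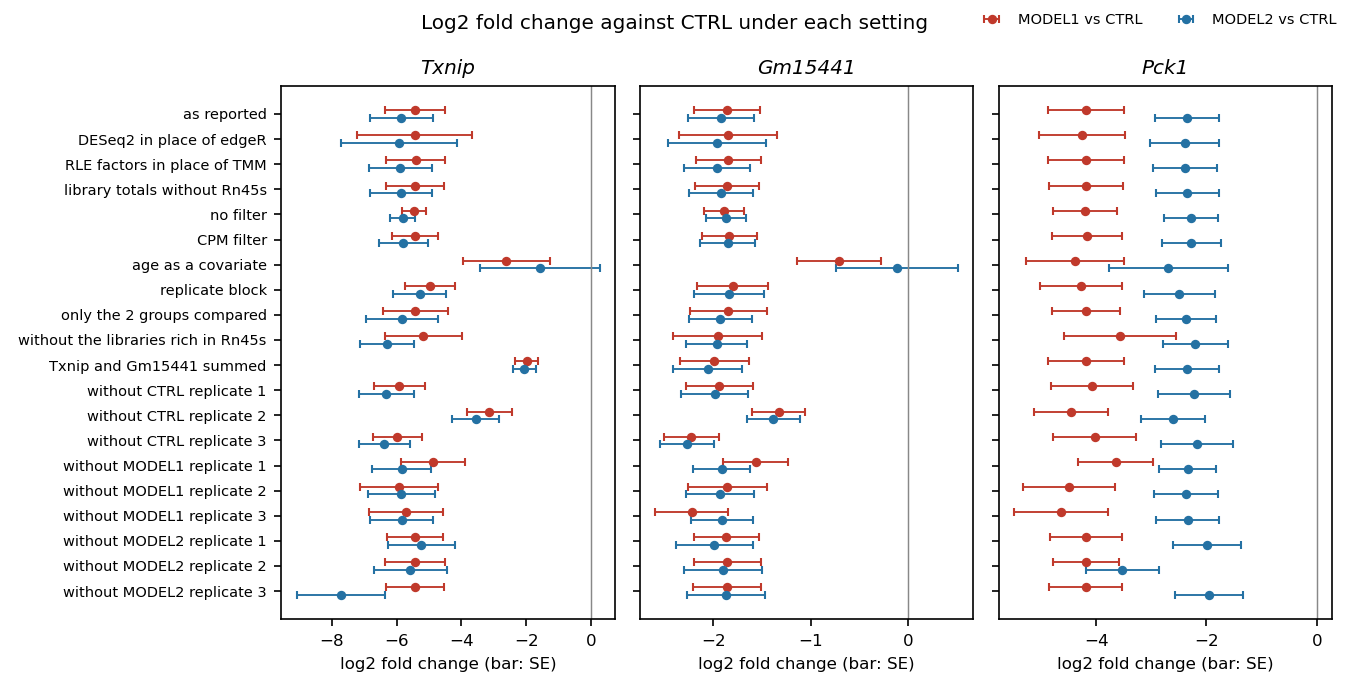
Log2 fold change of Txnip, Gm15441 and Pck1 against CTRL, with its SE as a bar, under each setting of the analysis. Txnip moves from -5.43 to -3.15 in MODEL1 without CTRL replicate 2 and to -2.62 with age as a covariate, while Pck1 in MODEL1 stays between -4.64 and -3.56.

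Genes that moved with Txnip over the 9 libraries were ranked by Pearson correlation among the 2638 other genes that passed the filter. Gm15441 ranked first (r = 0.928), followed by Trim47 (a ubiquitin ligase; 0.918), Tgoln1 (a trans-Golgi protein; 0.918), Taf6 (a subunit of the general transcription factor TFIID; 0.918) and 4932416H05Rik (0.918). Exons of Tgoln1 and Taf6 lie opposite exons of Gm20536 and Ap4m1. The lowest correlations were those of Bptf (a chromatin remodelling subunit; -0.924), Pigh (GPI anchor synthesis; -0.923, opposite Plekhh1) and Snw1 (a splicing factor; -0.919, opposite Slirp). Pck1 ranked 203rd (r = 0.671). These values describe 9 libraries that share depth and group differences, and they carry no test.

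Taking out the group means left the variation among livers of the same group, and the order of genes changed. Gm15441 then ranked 51st (r = 0.770) and Pck1 1725th (r = -0.167). The leading genes were Gm11201 (0.910), Pla2g6 (a phospholipase; 0.907), Cd160 (a lymphocyte receptor; 0.900), Psmd11 (a proteasome subunit; 0.897) and Sgpp2 (a sphingosine phosphatase; 0.889). None of them was among the first 5 above. Without CTRL replicate 2, 0 of the first 5 kept that place, while 3 did without CTRL replicate 1 and 3 without CTRL replicate 3. Exons of Gm11201, Cd160 and Sgpp2 lie opposite those of Ksr1, Pdzk1 and Farsb.

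The wider pathways were taken from 8 lists with 146 genes, none of them a member. All 146 were in the table, and 25 passed the filter. In MODEL1 against CTRL 2 of the 25 were higher and 2 lower by edgeR's adjusted p, with 21 not called, and the median log2 fold change was -0.05 against 0.00 over all genes tested. In MODEL2 2 were higher and 0 lower, with a median of -0.14 against 0.00. In MODEL2 against MODEL1 0 of the 25 were called by edgeR and 0 by DESeq2, while 2, Fabp1 and Scd1, had an unadjusted p under 0.05 in edgeR. At that unadjusted level 5 passed in MODEL1 and 4 in MODEL2 against CTRL, and DESeq2 called 4 and 2. Read against the 22.8%, 13.3% and 7.28% of all genes called, the counts of list genes do not exceed the background. The p-values set a difference between groups against a spread estimated from all 9 libraries, with 3 livers per group.

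Glucose sensing showed no called gene. Of 20 genes of the ChREBP and fructose response, 5 were tested and 0 were called in either model, with medians of -0.41 in MODEL1 and 0.09 in MODEL2. Tkfc, the triokinase of fructose breakdown, was at 146 ± 46.6, 142 ± 35.1 and 139 ± 34.8 CPM (SD, n = 3) in CTRL, MODEL1 and MODEL2. Scd1, the stearoyl-CoA desaturase, held 20, 44 and 10 counts in CTRL, 5, 35 and 21 in MODEL1, and 49, 47 and 38 in MODEL2. Its log2 fold change was -0.52 ± 0.54 in MODEL1 (edgeR adjusted p = 0.541) and 0.72 ± 0.51 in MODEL2 (0.399), where it was called without CTRL replicate 2 (1.55 ± 0.52, 0.0496). The summed level of the whole list was 545 to 626 CPM in CTRL, 338 to 727 in MODEL1 and 564 to 683 in MODEL2, so CTRL replicate 2, the liver richest in Txnip, did not stand far above the other CTRL livers here. Tkfc has opposite exons of Cyb561a3 and Ddb1.

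Glycolysis and glycogen genes also had no called member. Of 20 glycolysis genes 2 were tested. Pfkp, a phosphofructokinase, was at 234 ± 5.13, 287 ± 79.6 and 317 ± 50.8 CPM in CTRL, MODEL1 and MODEL2 and lies opposite Pitrm1. Tpi1, triose phosphate isomerase, held 1, 4 and 10 counts in CTRL and 13 to 16 in MODEL1, with a log2 fold change of 1.30 ± 0.63 (edgeR adjusted p = 0.148), called without CTRL replicate 3 (2.20 ± 0.78, 0.0496), and lies opposite Spsb2. Of 17 genes of glycogen and pyruvate handling 2 were tested, Ugp2 (UDP-glucose synthesis, opposite Gm12043) and Pdhb (a pyruvate dehydrogenase subunit). Their log2 fold changes were 0.22 ± 0.44 and -0.60 ± 0.51 in MODEL1 and -0.54 ± 0.46 and -0.90 ± 0.53 in MODEL2.

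Among the other genes of gluconeogenesis, 3 of 19 were tested and 1 was called. Gpt2, the mitochondrial alanine aminotransferase that feeds pyruvate into the pathway, held 26, 39 and 28 counts in CTRL and 9, 16 and 18 in MODEL1, with no overlap. It was lower in MODEL1, with a log2 fold change of -1.36 ± 0.48 (edgeR adjusted p = 0.0424). The call was lost without CTRL replicate 2 (adjusted p = 0.145) and without each MODEL1 replicate (0.138, 0.0592 and 0.0896 for replicates 1 to 3). It was also lost without the libraries rich in Rn45s (0.345) and in the fit with age (0.663). In MODEL2 Gpt2 held 41, 9 and 12 counts, a log2 fold change of -0.72 ± 0.46 (adjusted p = 0.345) that was called without MODEL2 replicate 1 (-1.61 ± 0.49, adjusted p = 0.0392). Pcx, the pyruvate carboxylase, was at 40.9 ± 32.4, 39.2 ± 14.2 and 43.6 ± 30.5 CPM (SD, n = 3) in CTRL, MODEL1 and MODEL2.

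The fasting list had 3 of 20 genes tested and 1 called. Fabp1, the liver fatty acid binding protein and a PPARA target, held 66, 50 and 68 counts in CTRL, 14, 34 and 45 in MODEL1, and 86, 38 and 50 in MODEL2. It was lower in MODEL1 with a log2 fold change of -1.22 ± 0.35 (edgeR adjusted p = 0.0127), and MODEL2 stood at -0.18 ± 0.33 (0.777). The MODEL1 call was lost without MODEL1 replicate 1 (0.0667), in the fit with age (0.180) and once libraries rich in Rn45s were left out (0.283). The summed hepatocyte marker level was also lower in MODEL1, and its part in the result was not tested.

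Of 15 genes of the feeding response 3 were tested and 0 called. Agpat2, which makes phosphatidic acid, was at 0.91 ± 0.49 in MODEL1 (edgeR adjusted p = 0.206) and 0.30 ± 0.51 in MODEL2, and it lies opposite Egfl7. Lpin1, a phosphatidate phosphatase named after its values were seen, was at -2.42 ± 0.93 in MODEL2 (adjusted p = 0.0921). Insig2, which holds SREBP in the endoplasmic reticulum, was at 0.31 ± 0.50 and -0.46 ± 0.53. The medians of the tested genes were 0.31 in MODEL1 and -0.46 in MODEL2.

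In the thioredoxin system, whose central protein Txnip binds, 2 of 15 genes were tested and both were higher in MODEL1. Txnrd2, the mitochondrial thioredoxin reductase, held 158, 163 and 188 counts across the CTRL livers. The MODEL1 livers held 678, 436 and 574 and the MODEL2 livers 500, 500 and 464. All 6 lay far above CTRL, with log2 fold changes of 1.49 ± 0.19 (edgeR adjusted p = 4.9e-06) in MODEL1 and 1.43 ± 0.19 (1.7e-05) in MODEL2. With age as a covariate the MODEL2 value was 1.32 ± 0.41 (0.106). The strand setting of the counting is not known, so reads of Txnrd2 cannot be assigned with certainty. Txnrd1, the cytosolic reductase and a known NRF2 target, held 6, 2 and 2 counts in CTRL, 14, 25 and 22 in MODEL1, and 15, 4 and 12 in MODEL2. It was higher in MODEL1 by 2.36 ± 0.62 on the log2 scale (adjusted p = 0.00721; 0.0866 in the fit with age) and stood at 1.50 ± 0.65 in MODEL2 (0.145).

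Clock genes were listed because Txnip and Pck1 vary with feeding time and the hour of collection is not known. Of 20 genes 5 were tested, and 1 was called. Per2, a repressor of the clock, held 4, 5 and 23 counts in CTRL, 33, 19 and 29 in MODEL1, and 37, 30 and 60 in MODEL2. It was higher in MODEL2, with a log2 fold change of 1.89 ± 0.48 (edgeR adjusted p = 0.01), and at 1.10 ± 0.50 in MODEL1 (0.121). CTRL replicate 3, from the oldest CTRL mouse, held most of the CTRL counts, and without it MODEL1 stood at 2.27 ± 0.53 (0.00318). With age as a covariate the MODEL2 value was -0.47 ± 0.74 (0.860), and the call was also lost without CTRL replicate 1 (0.0602), without MODEL2 replicate 3 (0.0731) and without the libraries rich in Rn45s (0.0776). Clock, its activator, was at 94.7 ± 41.5, 116 ± 21.5 and 70.5 ± 13.0 CPM (SD, n = 3) in CTRL, MODEL1 and MODEL2.

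**Figure D5:**
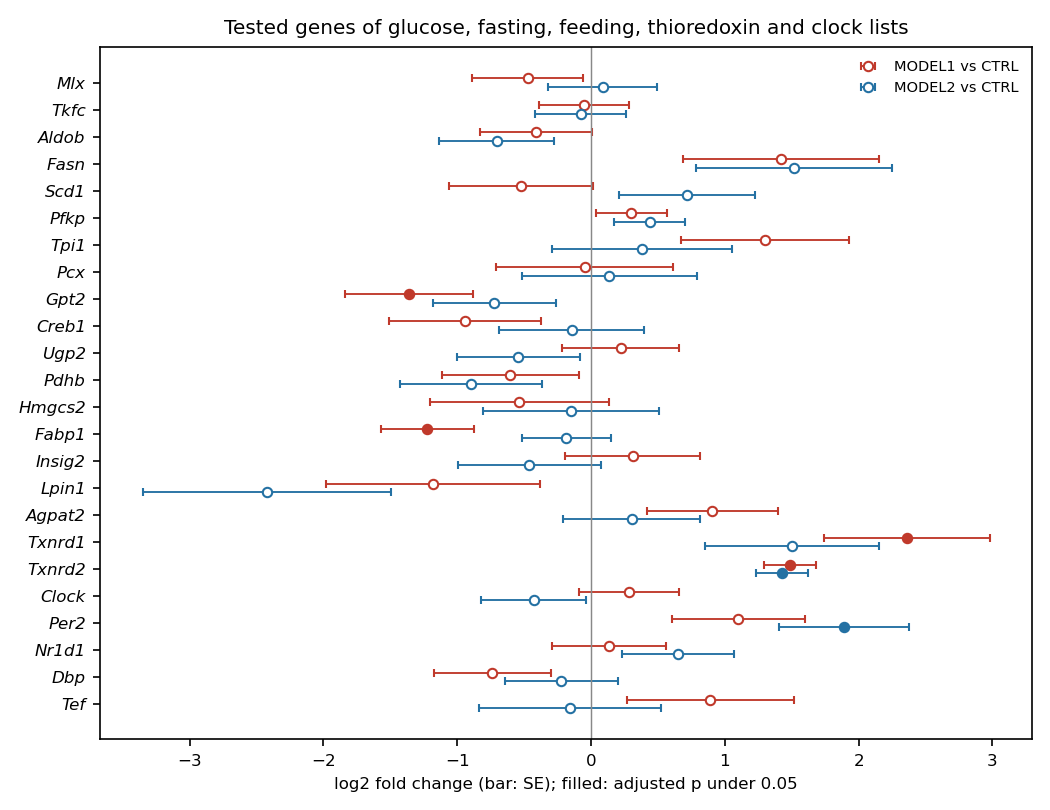
Log2 fold change against CTRL, with its SE as a bar, for tested genes of the 8 lists, with 1 of the 25 left out; filled points have an edgeR adjusted p under 0.05. Txnrd2 is filled in both models, Gpt2, Fabp1 and Txnrd1 in MODEL1 only, and Per2 in MODEL2 only, a difference between models that no list gene passed when tested directly.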

How the data were processed

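RNA from liver of 9 mice was measured as counts, whole-number reads per gene symbol, which the authors deposited without normalization. The submitters' processing notes name build mm10, HTSeq 0.11.2, HISAT2 2.1.0 and Trimmomatic 0.38; their roles, the annotation, the kit and the strand setting are not given in the sources used here. Groups came from the labels, with library totals of 219504 to 325177 counts. Members and lists were chosen with earlier results of these data known.

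Genes were kept by filterByExpr (minimum count 10; 2639 genes) and fitted in edgeR 4.0.16 (R 4.3.3) over all 9 libraries by the quasi-likelihood F test with TMM scaling. p-values were Benjamini-Hochberg adjusted with a threshold of 0.05, and SE was |log2 fold change| over the root of F. Likeness to Txnip used log2(CPM + 10). The fit was also run on simulated counts. These had the same spread for every gene, so they do not show how it handles genes as variable between livers as Txnip. Named genes were the members, called list genes, the 2 most abundant tested genes of each list, Rn45s, and the genes most and least like Txnip; 1 gene under this rule is not reported here. Hcn3, Lpin1, the direct repeat and the cAMP response element were chosen after values or sequences were seen. Symbols were placed with GENCODE M21, and exon overlap was counted by strand. Poisson intervals are exact (95%). Alternatives were DESeq2 1.42.0, RLE scaling, totals without Rn45s, other filters, age, a replicate block, 2-group fits, a summed locus and left-out libraries. Libraries of a group differed beyond sampling noise (chi-square per degree of freedom 2.98 to 16.0), so none was a duplicate.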

Additional observations from a re-analysis of the deposited data

Results flagged for a closer look

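Hcn3, whose exons lie opposite the last exon bases of Pklr, differed between the models by 0.98 ± 0.29 on the log2 scale, MODEL2 above MODEL1 (edgeR adjusted p = 0.0434), and was singled out after its values were seen. It held 108, 106 and 71 counts in CTRL, 59, 99 and 214 in MODEL1, and 260, 198 and 186 in MODEL2. MODEL1 replicate 3 lay within the MODEL2 range in counts, and in CPM below it (673 against 756 at the lowest). In scaled units the means were 416 ± 110, 439 ± 225 and 870 ± 121 CPM (SD, n = 3). Its log2 fold change against CTRL was 0.09 ± 0.30 in MODEL1 (adjusted p = 0.873) and 1.07 ± 0.30 in MODEL2 (0.0177). The 4 Pklr counts were in MODEL2 libraries. Whether they came from Hcn3, or Hcn3 counts came from Pklr, was not tested.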

How the results depend on the processing

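With age as a covariate, called genes numbered 299 in MODEL1, 71 in MODEL2 and 101 between the models, against 602, 350 and 192; called list genes were 1 and 0, against 4 and 2. Txnip was then at -2.62 ± 1.34 and -1.59 ± 1.84 and Gm15441 at -0.71 ± 0.43 and -0.11 ± 0.63, so all member calls but Pck1 in MODEL1 were lost. Per2 in MODEL2 was at -0.47. Without the libraries rich in Rn45s, called genes were 299, 210 and 62, and list genes 2 and 1. Summed with Gm15441, Txnip was at -1.99 and -2.06. With no filter, 1 list gene, Scd1 (1.35), was called between the models. The causes were not tested.

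Leaving out 1 library gave 497 to 636 called genes in MODEL1, 221 to 379 in MODEL2 and 85 to 226 between the models, and 2 to 6, 1 to 3 and 0 list genes. Txnip ranged from -5.97 to -3.15 in MODEL1, from -7.72 to -3.56 in MODEL2 and from -2.29 to 0.20 between the models. Gm15441 ranged from -2.22 to -1.33, -2.27 to -1.38 and -0.35 to 0.31. Pck1 ranged from -4.64 to -3.65, -3.53 to -1.96 and 0.66 to 2.30, and its MODEL2 call was lost without MODEL2 replicate 3. An arm of 2 libraries is assumed to vary like the others. In the fit of the models alone, Txnip and Pck1 did not pass the filter.

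Replicate numbers are shared by the labels, but same-numbered libraries did not deviate together (r from -0.123 to 0.00953). With the replicate block, 125 genes were called between the models, 543 in MODEL1 and 290 in MODEL2, and Txnip was at -4.97 and -5.29. The tested members stayed called against CTRL, which is no support since these contrasts chose them. Gpt2 was no longer called in MODEL1 (edgeR adjusted p = 0.0745). Spearman ranking kept 1 of the first 5 genes like Txnip, and deviations 0. Small counts limit what can be said of Arrdc4, G6pc and Pklr, and why their counts were small was not tested.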
